A study of Mus musculus with 2 samples.

Results

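The clustered histone genes of the mouse were examined for binding of CTCF in embryonic stem cells. The members were all genes of GENCODE M1 on mm9 whose symbol starts with Hist1h, Hist2h, Hist3h or Hist4h. There were 70 such genes among 37273 annotated on the assembled chromosomes, 67 of them protein-coding and 3 pseudogenes (Hist3h2bb-ps, Hist1h2aj and Hist2h3c2). The region of a gene was its annotated span with 2 kb added on each side. A cluster was a run of members with gaps of at most 500 kb, extended by 100 kb on each side.

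The data comprised 2 ChIP-seq libraries from R1/E embryonic stem cells (ESCs) in which a stably integrated bacterial artificial chromosome (BAC) expresses a tagged form of CTCF (the LAP tag, with GFP), beside the untagged endogenous gene. Drug-resistant cells had been enriched for GFP by flow sorting. Chromatin was fixed with 1% formaldehyde, sheared to about 500 bp and precipitated with a goat antibody against GFP for the CTCF library or with goat IgG for the control, which its label also calls input DNA. The CTCF library held 8391191 tags of 35 bp and the IgG library 7988889, and 33788 CTCF peaks were deposited. With 1 library per antibody there was no replicate, so no p-value was computed and all intervals, at 95%, cover counting error only.

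Replication-dependent histone genes encode the H2A, H2B, H3 and H4 proteins of the nucleosome core and the H1 linker histones. They are short and mostly intronless, they sit in clusters where the families are interleaved, and their messages end in a conserved stem-loop instead of a poly(A) tail. H2A and H2B genes often form pairs that are transcribed away from each other from a shared promoter. CTCF is a zinc finger protein that binds a long DNA motif and acts as an insulator and, with cohesin, in the formation of chromatin loops.

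A peak lay within 2 kb of 14 of the 70 histone genes (20.0%, Wilson interval 12.3% to 30.8%). The same overlap was found for 45.6% of all 22367 protein-coding genes, which have a median length of 15427 bp against 530.5 bp for the histone genes. Among the 5842 protein-coding genes of up to 5 kb the share was 15.4%, inside the interval of the histone genes. A summit lay within 2 kb of the gene start for 10 histone genes (14.3%, interval 7.95% to 24.3%), against 12.7% of protein-coding genes and 9.47% (553) of those of up to 5 kb. Rpl and Rps genes, which encode ribosomal proteins and have a median length of 3237.5 bp, gave 56.0% (47 of 84), and Hox genes, with a median of 4082.5 bp, gave 47.5% (19 of 40). Because neighbours share regions, the 14 genes rested on only 9 peaks.

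Of these 9 peaks, 5 held a match to the CTCF motif within 150 bp of the summit. Their sequences are shown because they carry the motif at the bound sites beside histone genes. Each is read 5′ to 3′ on the strand of the motif in mm9, with the 19 matched bases in capitals.
Hist1h4j, chr13:21826126-21826184, minus strand: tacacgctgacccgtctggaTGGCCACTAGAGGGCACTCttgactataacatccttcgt
Hist1h1t and Hist1h4c, chr13:23789408-23789466, minus strand: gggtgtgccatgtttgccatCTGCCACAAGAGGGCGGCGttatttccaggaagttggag
Hist2h4, chr3:96067373-96067431, minus strand: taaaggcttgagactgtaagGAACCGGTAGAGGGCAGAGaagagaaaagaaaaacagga
Hist1h2be, chr13:23690020-23690078, minus strand: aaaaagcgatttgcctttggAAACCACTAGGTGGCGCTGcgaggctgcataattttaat
Hist1h2bl, Hist1h2ai and Hist1h3h, chr13:21806758-21806816, plus strand: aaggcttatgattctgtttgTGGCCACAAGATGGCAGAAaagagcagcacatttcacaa

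The tallest peak at a histone gene belonged to Hist1h3e, an H3 gene of the distal Hist1 cluster (chromosome 13, 23653403 to 23654238, minus strand). Its summit was 35 tags high, higher than 99.2% of all deposited peaks, and lay 940 bp upstream of the gene start between genes. Within 150 bp of the summit there were 38 CTCF tags and 4 IgG tags, a ratio of 9.04 after scaling to library size (3.26 to 34.9). No motif match was found there, also not at the looser match threshold of 1e-04.

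Among H4 genes, Hist1h4j had a summit of 22 tags 684 bp upstream of its start, at the first sequence shown above. There were 28 CTCF tags and no IgG tag within 150 bp, 8.89-fold more than the 3 counts that a count of 0 allows. With the counting error of both libraries, the lower limit of the ratio was 6.76. Hist2h4 had the peak closest to a start, 210 bp upstream, with a height of 14, 16 CTCF tags and no IgG tag. That was 5.08-fold by the same rule, with a lower limit of 3.67. A summit of 19 tags with 19 CTCF tags and 1 IgG tag (ratio 18.1, 2.88 to 752) lay 810 bp downstream of the start of Hist1h4c and 1833 bp from that of Hist1h1t, the gene of the testis-specific linker histone, which was the only H1 gene with a peak. Hist1h4a shared a summit of 12 tags (16 CTCF tags, no IgG tag) with the H3 gene Hist1h3a. The summit lay 911 bp from the start of Hist1h4a and 2067 bp from that of Hist1h3a, and held no motif match.

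The H2B genes with a peak included those with the 2 longest gene models. In Hist2h2bb, 9281 bp long, a summit of 18 tags (19 CTCF tags, 1 IgG tag) lay 8034 bp from the start in an annotated coding exon, with no motif match. In Hist1h2be, annotated over 37383 bp, a summit of 14 tags (15 and 2 tags) lay 23023 bp from the start in an intron. That position was 16503 bp from the start of Hist1h4d, the nearest histone gene start. The peak at Hist2h2bb had the highest score of those at histone genes, 332.13 on the deposited scale of -10 log10 of p.

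The other 2 peaks lay at divergent H2A and H2B pairs. One, with a height of 16, 20 CTCF tags and 3 IgG tags (ratio 6.35, 1.88 to 33.4), lay 1343 bp from the start of Hist1h2bj and 1608 bp upstream of that of Hist1h2ag and held no motif match. The other, with a height of 13, 18 CTCF tags and no IgG tag, lay 1262 bp from the start of Hist1h2bl and 1531 bp upstream of that of Hist1h2ai. Its peak also came within 2 kb of the H3 gene Hist1h3h, whose start was 2747 bp from the summit. Both summits lay outside the outermost gene of the proximal Hist1 cluster, the one 881 bp beyond its last gene and the other 882 bp before its first.

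**Figure D1:**
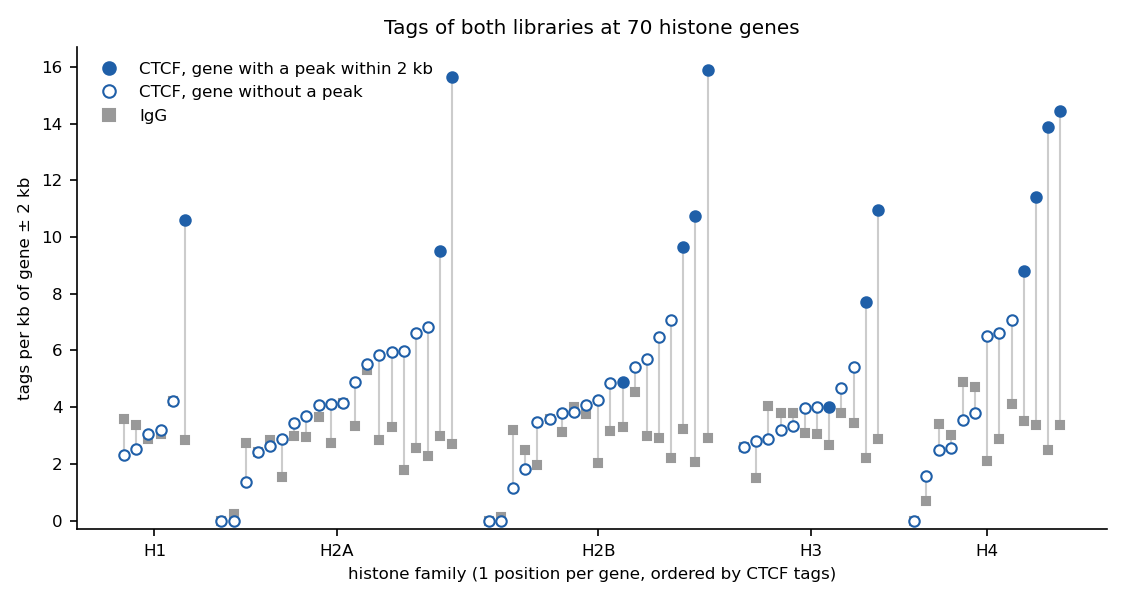
CTCF tags (circles) and IgG tags (grey squares) per kb of region, the gene with 2 kb on each side, for each of the 70 histone genes, ordered within the H1, H2A, H2B, H3 and H4 families by CTCF tags. Filled circles are the 14 genes with a peak, which reach up to 15.9 CTCF tags per kb, and the genes at or near 0 in both libraries are those of the repeated block in the proximal Hist1 cluster.

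Over the whole regions, the 14 genes with a peak held between 18 and 203 CTCF tags (median 57) and between 9 and 137 IgG tags (median 14). The 56 genes without a peak held between 0 and 50 CTCF tags (median 18) and between 0 and 46 IgG tags (median 14). Per kb, CTCF tags ranged from 4.01 to 15.9 with a peak and from 0 to 7.07 without one, so the groups overlapped at the low end, where Hist1h3h and Hist1h2be lay. IgG tags were similar in both groups, with medians of 2.90 and 2.99 per kb. The peaks chose the first group, so these values are a description.

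By family, a peak was found for 1 of 6 H1 genes, 2 of 20 H2A genes, 4 of 19 H2B genes, 3 of 12 H3 genes and 4 of 13 H4 genes. The ratio of CTCF to IgG tags over the regions was highest for the H4 genes, 2.13 (1.77 to 2.57), and lowest for the H1 genes, 1.22 (0.940 to 1.58). H2A and H2B genes both gave 1.70, with intervals of 1.45 to 2.0 and 1.51 to 1.93, and H3 genes gave 1.39 (1.15 to 1.69). Regions of neighbours in different families overlap, so the same tags can count for more than 1 family. The interval of the H4 family did not overlap those of the H1 and H3 families, while those of H2A, H2B and H3 overlapped with each other. H1 and H4 were compared as the lowest and highest families, and H3 with H4, after the values were seen. The ratios include the tags in the peaks, and family ratios outside the peaks were not computed.

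Within 500 bp of the gene start, the H4 genes held 62 CTCF and 25 IgG tags, a ratio of 2.36 (1.46 to 3.92). Of the CTCF tags, 20 came from Hist2h4 alone, where there was no IgG tag. That was 6.35-fold against 3 counts, with a lower limit of the ratio of 4.70. Without Hist2h4 the H4 ratio was 1.60 (0.952 to 2.74). The H2A starts gave 1.94 (1.22 to 3.13), and 1.63 (1.003 to 2.70) without Hist3h2a, the H2A gene with the most CTCF tags at its start. The H2B starts gave 1.39 (0.885 to 2.20) and the H3 starts 1.35 (0.777 to 2.38). Starts of H2A and H2B genes in divergent pairs share tags. The H1 starts gave 0.952 (0.486 to 1.86) from 20 tags of each library, so no enrichment was detectable there at this depth.

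For all 70 genes together, the regions held 1412 CTCF and 820 IgG tags, a ratio of 1.64 (1.5 to 1.79). All protein-coding genes gave 1.11 and those of up to 5 kb gave 1.35. Outside the peaks the histone ratio was 1.28 (1.16 to 1.4), against 1.13 (1.12 to 1.14) for short protein-coding genes and 0.897 for the whole genome outside the peaks. Over the 56 genes without a peak it was 1.16 (1.04 to 1.3), an interval that includes the value of the short genes, and over the sequence outside the peaks at the 14 genes with one it was 1.45 (1.24 to 1.71). The value of the short genes also covers those with a peak, so its like is the histone ratio of 1.28, whose interval lies above it. The ratio outside the peaks ranged from 1.1 to 2.96 across the clusters. Only the intervals of the distal Hist1 cluster and of Hist4h4, a single gene with 28 CTCF and 9 IgG tags, did not overlap. It was 1.11 (0.981 to 1.26) for the 31 genes of the distal Hist1 cluster and 1.1 (0.488 to 2.51) for Hist1h2al, with intervals that include 1. The interval of the distal Hist1 cluster nevertheless lay above the 0.897 of the genome outside the peaks, while that of Hist1h2al included it. The ratio was 1.53 (1.24 to 1.9) for the proximal Hist1 cluster, 1.37 (1.09 to 1.73) for Hist2, 1.80 (1.11 to 2.98) for Hist3 and 2.96 (1.36 to 7.14) for Hist4h4.

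At the starts, the ratio of 1.71 (1.34 to 2.17) from 197 CTCF and 110 IgG tags had an interval that includes the 1.83 of all protein-coding genes and the 1.44 (1.41 to 1.47) of those of up to 5 kb, and lay below the 3.95 (3.36 to 4.67) of Rpl and Rps genes and the 2.99 (2.27 to 3.99) of Hox genes. With the peaks left out, the histone starts gave 1.48 (1.16 to 1.90), all protein-coding starts 1.4, those of genes of up to 5 kb 1.16 (1.14 to 1.19), Rpl and Rps starts 1.72 and Hox starts 1.63, and the intervals of the histone, ribosomal protein and Hox genes overlapped. In a window of 250 bp the histone starts gave 1.39 (0.985 to 1.97), which includes 1 but lies above the 0.897 of the genome outside the peaks. This window was not computed with the scaling by tags outside the peaks.

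**Figure D2:**
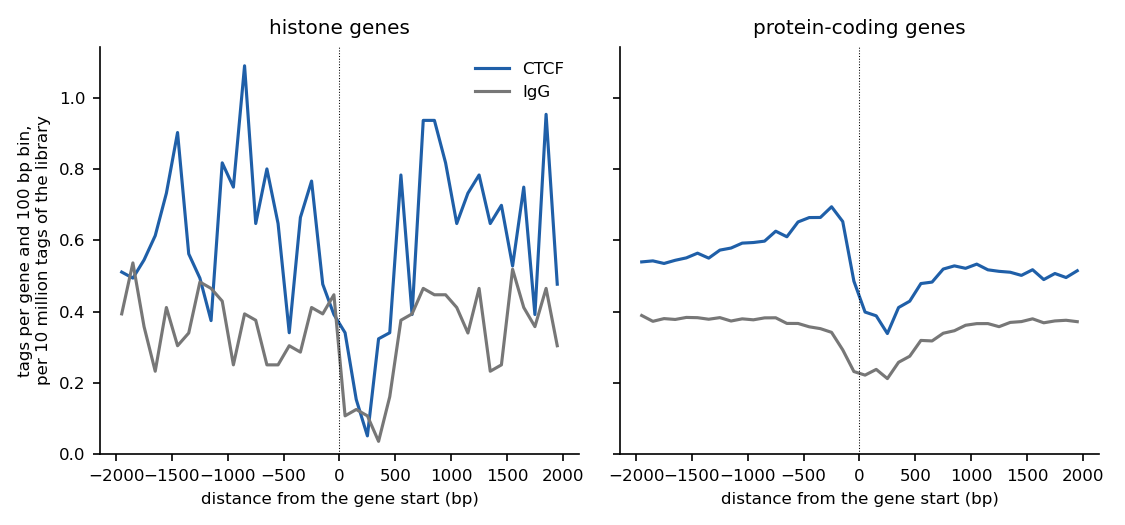
CTCF (blue) and IgG (grey) tags per gene in bins of 100 bp from 2 kb before to 2 kb after the gene start, scaled to the same number of tags in each library, for the 70 histone genes and for 22367 protein-coding genes. Both libraries dip after the start in both groups, to as low as 0.0511 CTCF and 0.0358 IgG tags per gene and bin at the histone genes.

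The plot around the starts showed a dip of both libraries inside the histone genes. A dip was also present at protein-coding genes, where tags per gene and bin of 100 bp, scaled to the same number of tags in each library, went from 0.694 for CTCF and 0.342 for IgG in the bin at -300 bp to 0.338 and 0.212 in the bin at 200 bp. In the same bins the histone genes went from 0.766 and 0.411 to 0.0511 and 0.107. In the 500 bp before the starts there were 140 CTCF and 85 IgG tags, and in the 500 bp after them 71 and 30. The share of 35-base stretches that occur once in mm9 was 74.6% before the starts and 47.6% after them. The tags at repeated stretches in the histone regions numbered 0 in the CTCF library and 1 in the IgG library, so the deposited tags hold next to none from repeated sequence. Sequence that histone genes share with each other was thus not measured at any of them. How far this made the dip of the histone genes was not tested.

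Over all regions the IgG density was 3.04 per kb (2.83 to 3.25), 0.976 times that of the genome. Over the genes alone, without flanks, it was 0.750 times that of the genome, with 69.4% of the stretches unique against 84.7% genome-wide. Per unique base the regions had 1.02 times the genome's IgG density. In 35 of the 70 genes less than 50% of the gene itself was unique, and 7 of these 35 had a peak within 2 kb, in the flanks or shared with a neighbour.

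**Figure D3:**
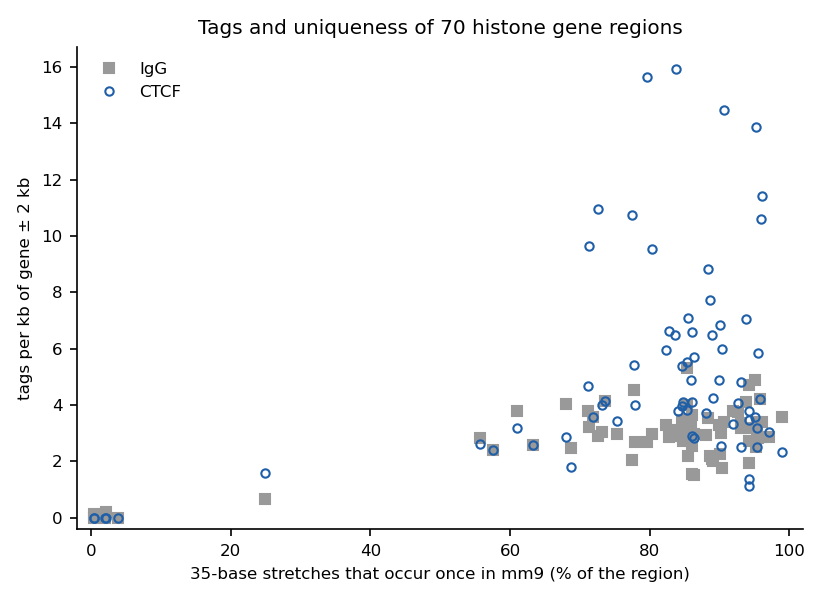
Tags per kb of region in the CTCF (circles) and IgG (squares) libraries against the percentage of 35-base stretches in the region that occur once in mm9, 1 pair of symbols for each of the 70 histone genes. The 6 genes below 50% have almost no tags in either library, and the other 64 span 1.52 to 5.31 IgG tags per kb.

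The strongest case was an inverted repeat in the proximal Hist1 cluster that carries Hist1h2bq, Hist1h2ao and Hist1h4m on one arm and Hist1h4n, Hist1h2ap and Hist1h2br on the other. Hist1h2bq and Hist1h2br, both 3788 bp long, differed at 0 bases, and so did Hist1h2ao and Hist1h2ap, both 519 bp long. Only 6.51% of the stretches in these 6 regions were unique, and they held 7 CTCF and 3 IgG tags in all. Hist1h2bq, Hist1h2ao and Hist1h4m were at 0 in both libraries, and the 7 CTCF tags all lay at Hist1h4n, where 24.9% was unique. These 6 genes could not be measured, and the distances of 95017 to 96564 bp from the starts of Hist1h2br, Hist1h2ap and Hist1h4n to the nearest summit, the longest of all members, rest on sequence that yielded almost no tags. Hist2h2aa1 and Hist2h2aa2, identical over 578 bp, were a second such pair, with 11 and 12 CTCF tags and 11 and 13 IgG tags in regions that were 57.6% and 55.7% unique. Without the 6 genes of the inverted repeat the ratio over the regions was 1.64 as well and the IgG density was 3.26 per kb. Among the measurable genes, Hist1h2ae had the most IgG tags per kb, 5.31, with 25 IgG and 26 CTCF tags and no peak.

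The interval of the CTCF to IgG ratio lay above 1 for 21 of the 70 regions (30.0%), 13 with a peak and 8 without, against 37.6% of all protein-coding genes and 21.5% of those of up to 5 kb. The one gene with a peak outside this count was Hist1h3h, with 18 CTCF and 12 IgG tags (1.43, 0.651 to 3.25). The 8 without a peak were Hist2h2ab, Hist2h2ac, Hist4h4, Hist3h2a, Hist1h2aj, Hist1h2bm, Hist1h2bk and Hist1h4i, with ratios between 1.96 for Hist3h2a and 3.21 for Hist2h2ac. Neighbours among them, such as Hist2h2ab with Hist2h2ac and Hist1h2aj with Hist1h2bm, have overlapping regions and share tags. The lowest ratio of a region with tags in both libraries was that of Hist1h2ba, the gene of the testis-specific H2B, with 5 CTCF and 14 IgG tags (0.340, 0.0958 to 0.999). Its divergent partner Hist1h2aa, the gene of the testis-specific H2A, had 6 and 12 tags, and over the joined regions of both the ratio was 0.392 (0.137 to 0.995) in sequence that was 95% unique. Scaled by tags outside the peaks, the intervals included 1 for Hist1h2ba (0.379, 0.107 to 1.11) and for the joined regions (0.437, 0.153 to 1.11), so whether these regions lay below the control depended on the scaling. The 8 genes and this pair were picked out after their values were seen, out of 70 regions examined.

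The 13 divergent pairs in the clusters were all made of an H2A and an H2B gene, with starts 168 to 306 bp apart (median 216 bp). Within 500 bp of the middle of the pairs there were 37 CTCF and 18 IgG tags in all, a ratio of 1.96 (1.09 to 3.65). The pairs of Hist1h2bq with Hist1h2ao and of Hist1h2ap with Hist1h2br lie in the inverted repeat and had no tag of either library there, so they could not be measured. Of the other 11 pairs, 2 had a peak within 2 kb, and none had a summit within 500 bp of its middle. The 2 summits near pairs lay 1396 bp (Hist1h2bl and Hist1h2ai) and 1476 bp (Hist1h2ag and Hist1h2bj) from the middle.

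Promoter letters were counted in the 250 bp before each start on both strands. TATAAA was present at 33 of 70 histone genes (47.1%) and at 12.3% of protein-coding genes, and CCAAT at 58 (82.9%) and 35%. TTTTCAGAG, part of the stem-loop at the end of histone messages, occurred on the gene strand within 100 bp of the annotated 3′ end of 26 genes (37.1%) and of 0.362% of protein-coding genes. A peak was near 13 of the 58 genes with CCAAT and 1 of the 12 without, 2 of the 33 with TATAAA and 12 of the 37 without, and 4 of the 26 with TTTTCAGAG and 10 of the 44 without. These matches are a description of the sequence. The split by peak was not made for protein-coding genes, neighbours share peaks, and the genes of the inverted repeat are counted. Whether the letters go with CTCF binding was not tested.

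The question of how CTCF sites lie around the clusters was taken up next. The 70 genes formed 6 groups, namely 10 genes of Hist2 on chromosome 3 (59.1 kb), Hist4h4 alone on chromosome 6, 3 genes of Hist3 on chromosome 11 (7.76 kb), 24 and 31 genes of the proximal and distal Hist1 clusters on chromosome 13 (328 kb and 404 kb), and Hist1h2al alone farther along chromosome 13. In the 6 groups with 100 kb on each side there were 43 summits, 21.5 per Mb (exact Poisson interval 15.6 to 29.0), against 13.2 per Mb in the genome. With members joined over gaps of up to 2 Mb the density was 15.2 per Mb (11.3 to 20.1), which includes the genome's value. Between the outermost genes there were 15 summits, 18.8 per Mb (10.5 to 31), an interval that includes the genome's value. Starts of protein-coding genes, the histone genes among them, numbered 53.0 per Mb in these regions and 8.74 per Mb in the genome, and the part of gene density in the summit density was not tested.

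**Figure D4:**
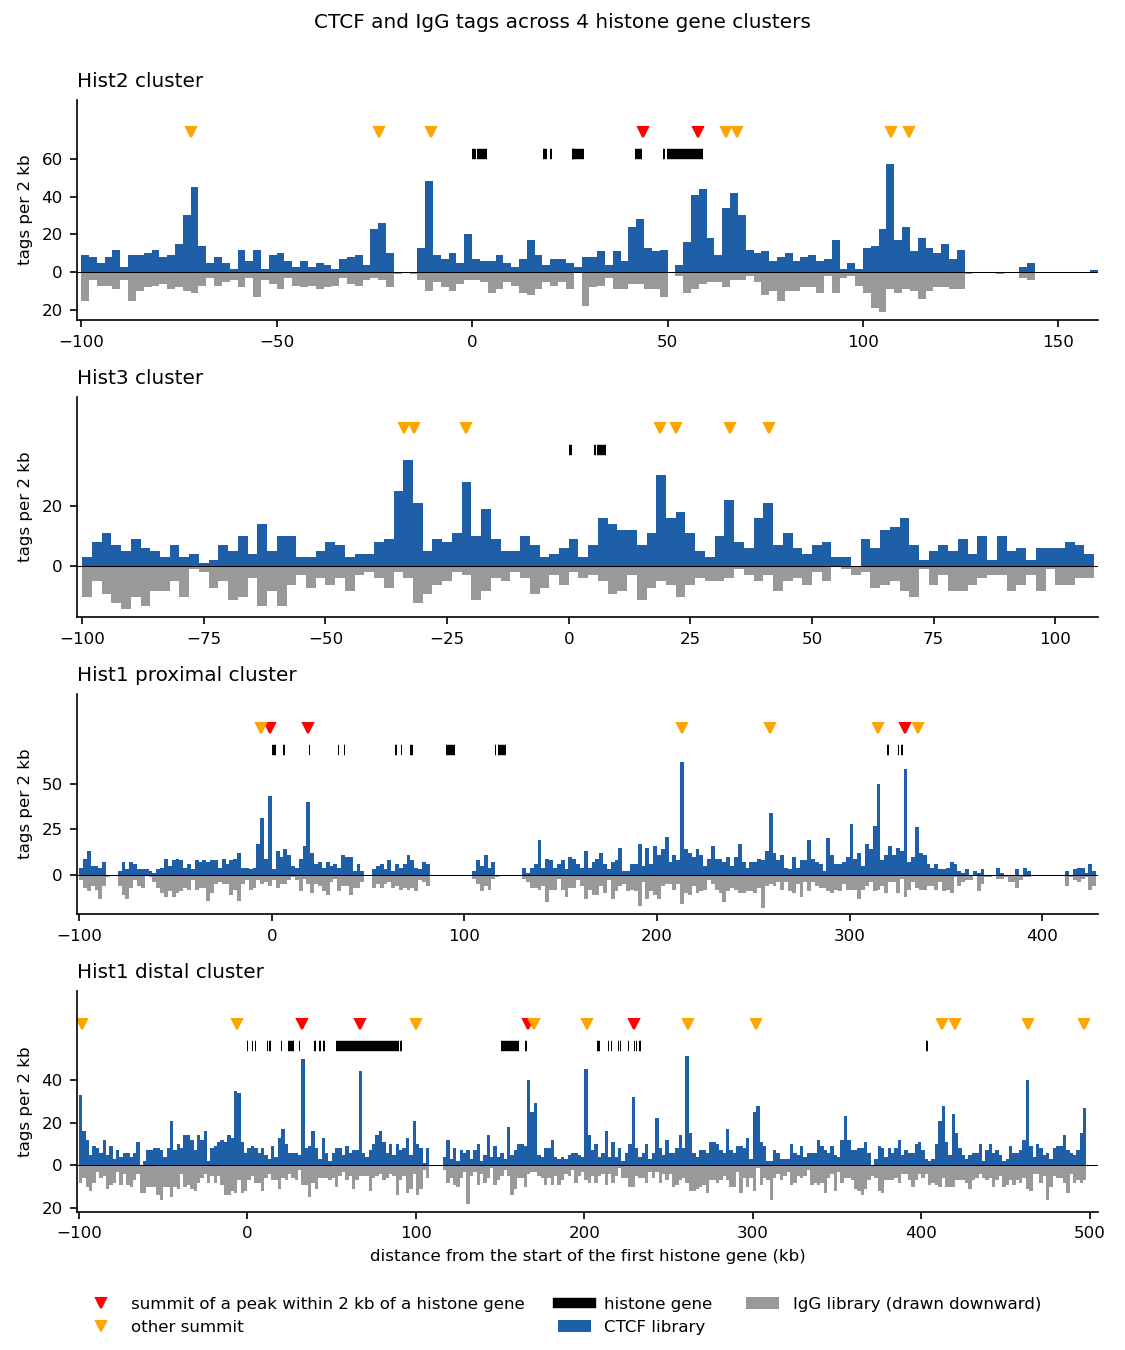
CTCF tags (blue, upward) and IgG tags (grey, downward) in bins of 2 kb across the Hist2, Hist3 and both Hist1 clusters with 100 kb on each side, against the distance in kb from the first histone gene. Black bars are histone genes, red triangles the summits of the 9 peaks within 2 kb of one, and orange triangles the other summits. The empty stretches of both libraries around 100 kb of the proximal Hist1 cluster hold the arms of the inverted repeat.

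The distal Hist1 cluster held 15 of the 43 summits, 24.8 per Mb (13.9 to 41.0) against 10.9 per Mb on chromosome 13, and 9 of them lay between its outermost genes. Hist2 held 9, 34.7 per Mb (15.9 to 65.9) against 10.2 per Mb on chromosome 3, of which 2 lay between its outermost genes. The proximal Hist1 cluster held 8, 15.2 per Mb (6.54 to 29.9), with 4 between its outermost genes. Hist3 held 7, 33.7 per Mb (13.5 to 69.4), on a chromosome with 23.1 per Mb, and none between its 3 genes. Around Hist4h4 there were 3 summits, and around Hist1h2al 1.

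The summits nearest to the outermost genes marked the clusters at different distances. The proximal Hist1 cluster had them within 882 bp on both sides. The distal Hist1 cluster had a summit of 12 tags 8245 bp after Hist1h2aa, its last gene, with a motif on the plus strand. Hist2 had summits of 14 tags 10524 bp before and of 12 tags 5776 bp after, the latter in an intron of Fcgr1, an Fc receptor gene. Hist3 had summits of 8 tags 21117 bp before and of 11 tags 10921 bp after its genes. At the single genes the distances were 61020 bp (in an intron of Gucy2c) and 43623 bp on the sides of Hist4h4, with heights of 10 tags for both, and 238365 bp and 7740 bp on the sides of Hist1h2al, with heights of 19 and 12 tags.

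From a histone gene start to the nearest summit the median distance was 10618.5 bp, with a range of 210 to 96564 bp. It was 15553 bp for all protein-coding genes and 23066.5 bp for those of up to 5 kb. A summit lay within 10 kb of 34 of the 70 starts and beyond 50 kb for 8. These 8 include the 6 genes of the inverted repeat, which could not be measured. The same shares were not counted over protein-coding genes. Genes of a cluster share summits, so these distances are not independent.

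**Figure D5:**
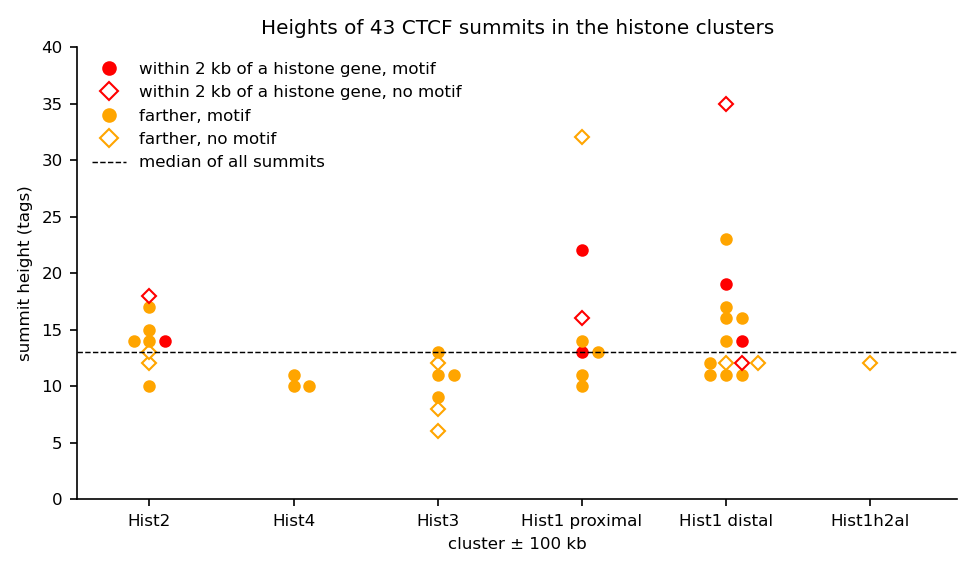
Heights in tags of the 43 CTCF summits in the 6 groups of histone genes with 100 kb on each side, in red for the 9 peaks within 2 kb of a histone gene and in orange for the other 34, with filled circles for summits with a motif match within 150 bp and open diamonds for those without. The dashed line is the median of 13 tags over all deposited summits, and the summits of 35 and 32 tags have no match.

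The 43 summits had a median height of 13 tags, equal to that of all deposited summits, and ranged from 6 to 35. The 9 at histone genes had a median of 16 (interval from the order of the values 13 to 22) and the other 34 a median of 12 (11 to 14). All 9 had a score of at least 100, against 17 of the other 34 and 59.2% of all peaks. A motif was found at 30 of the 43 (69.8%, 54.9% to 81.4%), against 72.6% of all summits, and at 5 of the 9 near histone genes (55.6%, 26.7% to 81.1%). The matches lay 2 to 127 bp from the summit (median 66.5 bp), 14 on the plus and 16 on the minus strand. Of the 4 peaks at histone genes without a match, those at Hist2h2bb and Hist1h4a held one at the looser threshold of 1e-04, and those at Hist1h3e and Hist1h2bj held none.

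The tallest summits away from histone genes were both in the Hist1 clusters. One of 32 tags lay in the wide gap of the proximal cluster, 95017 bp from Hist1h2br with Zfp184, a zinc finger gene, as the nearest protein-coding gene, with 37 CTCF and 4 IgG tags (8.81, 3.16 to 34) and no motif match. One of 23 tags lay in the distal cluster 29019 bp from Hist1h1a, an H1 gene, with 31 and 2 tags (14.8, 3.75 to 127) and a motif 5 bp from the summit. After these, the proximal Hist1 cluster had 22 and 16 tags at its next summits, both at histone genes. The 3 tallest at Hist2 had 18, 17 and 15 tags, those at Hist3 13, 12 and 11, and those at Hist4h4 11, 10 and 10, of which only the first at Hist2, in Hist2h2bb, was within 2 kb of a histone gene.

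In these regions there were 263 motif matches, 39 inside peaks and 224 outside. Within 150 bp of the matches outside peaks there were 380 CTCF and 151 IgG tags, a ratio of 2.40 (1.98 to 2.91). Over all sequence outside the peaks the ratio was 1.01 to 1.26 in the 6 regions. Unlisted sites with a motif thus carried more CTCF tags than their surroundings in the histone clusters. Matches outside peaks were not counted in the rest of the genome, so whether this is particular to the clusters was not tested.

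Replication-independent histone genes and factors of histone messages were counted for comparison. Of 12 replication-independent histone genes, 6 had a peak within 2 kb, namely H3f3a and H3f3b, which encode H3.3, H2afz and H2afv, which encode H2A.Z, and H2afy and H2afy2, which encode macroH2A. The tallest summits there were 21, 11, 11, 15, 15 and 12 tags high. No peak was found at H2afx, H2afj, H1fx, H1foo, Cenpa or the H1f0 pseudogene model. Of 13 genes for histone gene transcription and 3′ processing, 7 had a peak. At Lsm11, which encodes a protein of the U7 particle that cuts histone messages, the nearest summit lay 113 bp upstream of the start with a height of 11 tags, 11 CTCF tags and no IgG tag within 150 bp. The tallest of its 3 summits, of 33 tags with 36 CTCF and 2 IgG tags, lay 18081 bp from the start. Slbp, which encodes the stem-loop binding protein, had a summit of 18 tags 11827 bp from its start, and Npat, which encodes the coactivator of histone genes, had no peak. The median gene length was 5675 bp in the first list (538 to 62743 bp) and 28760 bp in the second (1962 to 137525 bp), and the counts of 6 of 12 and 7 of 13 stand beside the 45.6% of all protein-coding genes.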

How the data were processed

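Tags, peaks and summits in mm9 coordinates were used as deposited. The authors deposited each tag as a count of 1, with no position and strand repeated, per the files. The authors called peaks with MACS 1.4beta against IgG, and the deposited peak score is -10 log10 of p (lowest 50), while the deposited summit signal is the height in tags (6 to 89). The aligner is not given in the sources used here. There was 1 library per antibody (8391191 and 7988889 tags), labelled as CTCF and IgG, so tests across samples were not possible.

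At the 1000 peaks with the highest scores the fragment length was 185 bp, so each tag was placed 92 bp downstream. Ratios were scaled by library totals, with exact conditional intervals. Shares have Wilson intervals, densities exact Poisson intervals. Folds against 0 tags use 3 counts and leave out the counting error of the CTCF tags. A CTCF matrix (19 bases, pseudocount 1) was built from 192 CTCF motif sequences listed in the study's supplement for binding sites of RAD21, a cohesin subunit. It was matched at a threshold of 1e-05 within 150 bp of summits. The study itself searched with motifs of the JASPAR database, so the calls here rest on a substitute matrix. Uniqueness was counted over all 35-base stretches of mm9 on both strands. Functions were tested on simulated data. Scripts used pysam 0.24.0, pandas 2.3.3, scipy 1.17.1 and numpy 2.4.6 in Python 3.11.15.

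Named were all genes with a peak, those with the most and fewest IgG tags per kb, those of the small groups, the 3 farthest from a summit, and the tallest and outermost summits of each cluster. One outermost summit is not reported here. The members and lists were chosen with earlier results of these data known. Alternatives covered flanks, score thresholds, scaling, windows, tag moving, motif thresholds and joining of clusters.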

Additional observations from a re-analysis of the deposited data

How the results depend on the processing

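The 10 results were recomputed under 35 alternatives, of which 14 moved a value beyond its interval (counts, by over 1.5 times) and 21 did not. The count of 14 genes with a peak became 5 without flanks and 22 with flanks of 5 kb, and stayed at 14 with scores of at least 100. Scaling by tags outside the peaks moved the region ratio to 1.83, and without flanks the ratio of genes without a peak was 1.43. The 43 summits became 15 without flanks, 149 with flanks of 500 kb and 26 with scores of at least 100. Their density became 13.0 per Mb with scores of at least 100, where the genome had 7.81, and 15.2 (11.3 to 20.1) with members joined over 2 Mb, an interval that includes the genome's 13.2. Without flanks the IgG density was 0.750 times that of the genome. The median summit height was 16 when only peaks at histone genes were taken. The motif share became 86.0% at a match threshold of 1e-04 and 23.3% within 50 bp of the summit. With scores of at least 100 the median distance from start to summit was 13188.5 bp. The causes were not tested beyond what each setting adds or removes. At starts, a window of 250 bp gave a ratio of 1.39 (0.985 to 1.97).

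Chosen after seeing the data were the starts outside peaks (1.48), the starts without Hist2h4 (1.53), the regions without Hist1h2be (1.66), the scaling of single regions by tags outside the peaks (intervals above 1 for 22 genes and below 1 for 0) and the genes with at least 50% unique stretches (14 of 64 with a peak). No paired analysis was possible because there was 1 library per antibody. Depth limits single genes, whose starts held 0 to 20 CTCF tags, and genes in repeated sequence could not be measured.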
